A study of Zea mays with 48 samples.

Results

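Endosperm of the maize inbred lines UH301 and UH005 was compared 6 days after pollination, on 16 of the 48 arrays of a series on hybrid and inbred kernels. The 16 arrays are those whose titles name endosperm, both lines or their crosses, and replicates 1 to 4. The 4 genotypes hybridised were UH301 selfed, UH005 selfed, the hybrid 301x005 and the hybrid 005x301, with the seed parent taken as the line written first. No array held RNA of both inbreds. Each of the 4 replicates was a loop of 4 arrays on which each hybrid met each inbred, so that the hybrids served as the bridge between UH301 and UH005. The other arrays of the series held embryos of these genotypes, and endosperm and embryos of UH301, UH250 and their hybrids 301x250 and 250x301. They were also taken 6 days after pollination, and served for comparison and for the estimate of the spread. The labels describe the replicates as biological. They say that plants grew in a glasshouse and that selfed and crossed ears shared a pollination day, but give no number of ears per sample. All samples, inbred and hybrid, went through PCR amplification of cDNA before labelling, with a cycle number chosen for each sample.

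The inbred difference of a replicate is the log2 ratio of UH301 over UH005, averaged over the path through 301x005 and the path through 005x301. A positive value means a higher signal in UH301. The labels do not state which dye stands on top of the deposited ratio. It was taken as the RNA named first in the title, and with the opposite reading every sign below would turn. Of 3585 probes, 3227 had a value in at least 1 replicate and 2351 could be tested. The 16 arrays held 2084 to 3423 values each. The 4 replicates gave 2585, 2254, 2784 and 1823 inbred differences. The path through 301x005 and the path through 005x301 correlated across probes at r = 0.38, 0.03, 0.45 and 0.31 in replicates 1 to 4. In replicate 2 the paths shared little, and the SD of their difference was largest there, at 1.36, against 0.85, 0.92 and 1.07 in replicates 1, 3 and 4. These r values are across probes of the same arrays and are a description. No signal intensities were used. The 4 arrays of a replicate give 1 inbred difference per probe, so the number of replicates is the limit on precision.

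Endosperm is the nourishing tissue of the maize kernel. It arises from the fertilised central cell and receives more copies of the maternal than of the paternal genome, and it is the tissue in which most imprinted plant genes are known. At this age the tissue is dividing and its transfer cells, which face the maternal tissue and take up nutrients, are forming. In bulk endosperm fewer cells of a type and less RNA per cell cannot be told apart.

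UH301 and UH005 endosperm differed at 151 of 2351 probes, which is 6.42% (limma, Benjamini-Hochberg adjusted p under 0.05). At 108 probes, or 4.59%, the signal was higher in UH301, and at 43 probes, or 1.83%, it was lower in UH301. The median size was 1.46 among probes called higher and -0.92 among those called lower. At least 1 on the log2 scale was reached by 95 of the 108 and by 17 of the 43. At an unadjusted p under 0.05 there were 477 probes. Over all tested probes 869 values lay above 0 and 1482 below, with a median of -0.10. The median was -0.05 with arrays centred and -0.03 with arrays scaled. The 6 control entries with values, left out of all counts, averaged between -0.21 and -0.02.

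Every called probe had the same sign in each replicate where it was measured. The 108 probes called higher had medians of 1.31, 1.07, 1.45 and 1.77 in replicates 1, 2, 3 and 4. The 43 called lower had medians of -0.95, -0.85, -0.91 and -0.81. The calls were made from these values, so the shared sign is a description. Replicates 1 and 3 carried inbred RNA in Cy3 and replicates 2 and 4 hybrid RNA. The medians of the called probes were alike in the odd and even replicates. They were 1.38 and 1.43 for probes called higher and -0.86 and -0.85 for those called lower. The calls were made from both kinds of replicate, so this likeness is a description too. The count of calls was 82, 82, 67 and 42 without replicates 1, 2, 3 and 4, and 55 with arrays scaled to a common spread.

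**Figure D1:**
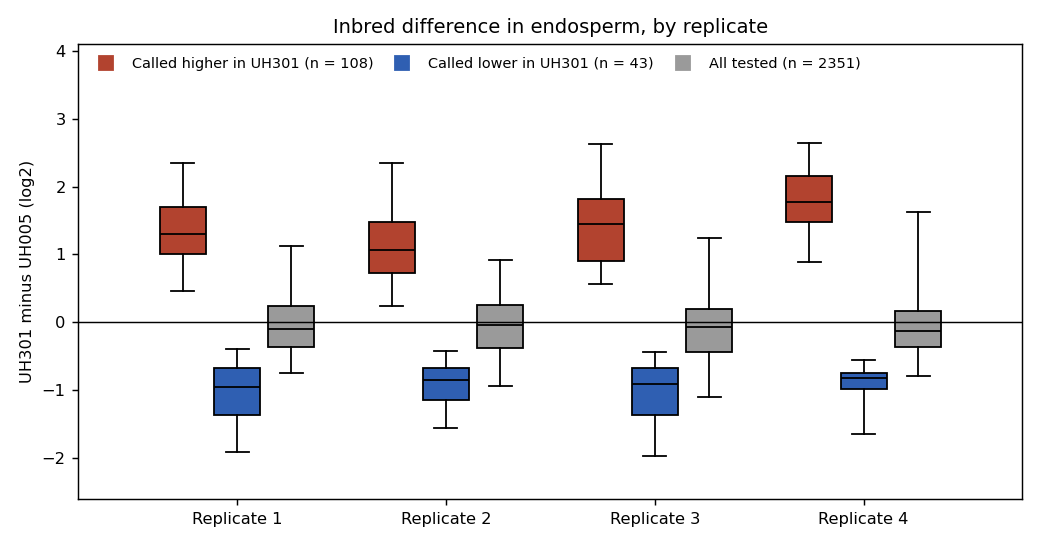
Inbred difference, UH301 minus UH005 on the log2 scale (vertical axis), in each endosperm replicate (horizontal axis) for the 108 probes called higher in UH301, the 43 called lower and all 2351 tested. Boxes span the quartiles with the median as a line and whiskers run from the 5th to the 95th percentile. The medians of the probes called higher lie between 1.07 and 1.77 and those of the probes called lower between -0.95 and -0.81.

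None of the 151 called probes could be given a gene name. JA5, OA7, MH10 and UE9 are given by ID, as the 2 largest differences in each direction among called probes with 4 replicates of the same sign. JA5 measured 0.76, 3.43, 1.90 and 2.69 in replicates 1 to 4, with a mean of 2.20 ± 0.38 (SE, n = 4, limma adjusted p = 0.0208). OA7 measured 2.34, 2.34, 1.80 and 2.06, with a mean of 2.13 ± 0.21 (SE, n = 4, limma adjusted p = 0.00242). OA7 was even across replicates, whereas JA5 was low in replicate 1. MH10 measured -1.35, -1.71, -1.86 and -2.35, with a mean of -1.81 ± 0.19 (SE, n = 4, limma adjusted p = 0.00304). UE9 measured -1.57, -0.66, -1.37 and -1.69, with a mean of -1.32 ± 0.24 (SE, n = 4, limma adjusted p = 0.0100). UE9 was nearest to 0 in replicate 2. The call of JA5 was lost without replicate 3 (limma adjusted p = 0.0510), without replicate 4 (limma adjusted p = 0.0825) and with arrays scaled (limma adjusted p = 0.0549), and the call of UE9 without replicate 4 (limma adjusted p = 0.0509). With the spread from the 4 loops alone JA5 (limma adjusted p = 0.0725) and UE9 (limma adjusted p = 0.0513) did not pass. The SE in that fit was 0.43 for JA5, 0.15 for OA7, 0.19 for MH10 and 0.20 for UE9. On the path through 005x301 alone JA5, MH10 and UE9 did not pass, with limma adjusted p of 0.110, 0.159 and 0.0636. OA7 passed in each of these fits.

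Probes called higher in UH301 were gathered in a few groups of probe IDs. Most probes have an ID of 2 letters and a number, as JA5, and 21 letters stand in the first place. Of the other IDs nearly all begin with S_ or P_, beside 10 that begin with V_ and 3 of other forms. The sources used here do not say what the first letter stands for. Of the 108 probes called higher, 85 (78.7%) have an ID beginning with J, K, N, O or R. These letters hold 372 tested probes, of which 85 are 22.8%. The share called higher was 17.6% for J, 23.0% for K, 24.7% for N, 24.7% for O and 23.7% for R. Among the other 16 letters it lay between 0% and 5.56%, the highest being L with 4 of 72. The letters were picked after these values had been seen, so the contrast is a description with no test. With these probes left out of the fit, 13 of the remaining 1979 were called, 4 higher and 9 lower. In the fit of all probes, 23 of the 108 called higher and all but 2 of the 43 called lower were among these 1979. Whether several of the J, K, N, O and R probes measure the same transcript was not tested, since the IDs carry no sequence.

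**Figure D2:**
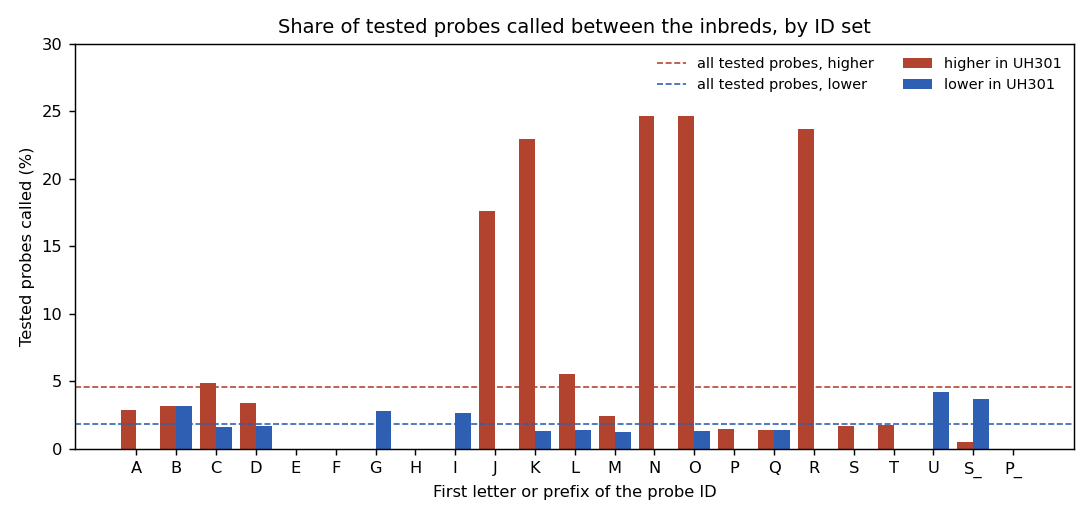
Share of tested probes called higher (red) and lower (blue) in UH301, in percent (vertical axis), by the first letter or the prefix of the probe ID (horizontal axis). Dashed lines are the shares over all tested probes, 4.59% and 1.83%. Bars for J, K, N, O and R reach 17.6% to 24.7%, and no other set passes 5.56%.

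The probes of these 5 letters fell into separate ranges of values. Their median was 0.13 and their upper quartile 1.16, and 105 of 372 lay above 1. Of these 105 probes, 78 were called and 27 were not. Probes of the other 16 letters had a median of -0.07 and an upper quartile of 0.12, and 23 of 907 lay above 1. The gathering was also seen in each replicate over all measured probes, called or not. The letters were picked after the calls from these same replicates had been seen, so these shares are a description. In replicates 1, 2, 3 and 4, 24.6%, 19.4%, 24.0% and 40.5% of measured J, K, N, O and R probes lay above 1. Of the probes of the other letters 3.03%, 5.28%, 6.87% and 4.48% did. In each replicate the share was higher among the 5 letters than in any replicate of the other letters. The 85 calls were 46, 61, 47 and 26 without replicates 1, 2, 3 and 4, fewest without replicate 4.

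**Figure D3:**
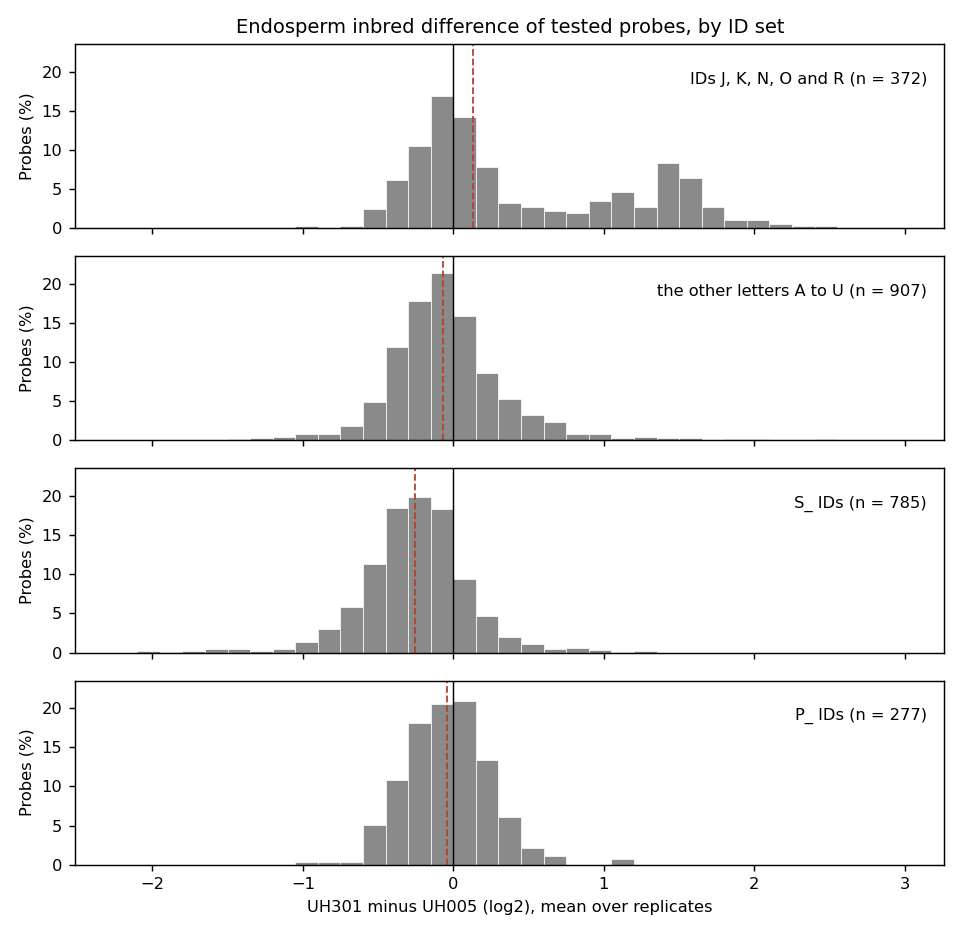
Histograms of the inbred difference, UH301 minus UH005 on the log2 scale (horizontal axis), as the percent of tested probes in each bin (vertical axis), for 372 probes with IDs in J, K, N, O and R, 907 with other letters, 785 with S_ IDs and 277 with P_ IDs. Dashed lines mark the medians, at 0.13, -0.07, -0.25 and -0.04. The top panel has a group of values above 1 that is apart from the values around 0.

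Probes called lower in UH301 were gathered elsewhere. Of the 43, 29 (67.4%) have S_ IDs, and the other letters hold 12 and the 5 letters 2. The S_ probes as a whole lay below the rest, with a median of -0.25 and an upper quartile of -0.07. S_ IDs hold 785 of the 2351 tested probes. Of these 785 probes 29 were called lower, or 3.69%, against 1.83% of all tested probes, and 4 called higher. Of the single letters, U had a larger share called lower, 4.23% or 3 of 71, and B had 3.17%. Below -1 lay 5.43%, 7.70%, 11.1% and 2.78% of the measured S_ probes in replicates 1 to 4, against 3.09%, 5.68%, 7.33% and 2.91% of all probes. The S_ share was thus above that of all probes in replicates 1, 2 and 3 and below it in replicate 4. Among 277 tested P_ probes, the set that holds most of the named chromatin genes, 0 were called by limma and 14 had an unadjusted p under 0.05, with a median of -0.04. P_ probes had no value in replicate 2 and at most 3 replicates. Among probes with 3 replicates, 0 of 261 P_ probes and 46 of 794 others were called. When each ID set was centred within each array, 65 probes were called higher and 24 lower, and 43 of the 65 had the 5 letters.

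The hybrids that bridge the comparison lay at different distances from the inbreds. For the 108 probes called higher in UH301, 301x005 measured 0.06, -0.01, -0.28 and 0.10 against UH301 in replicates 1 to 4, as medians over probes. The other hybrid, 005x301, measured -1.38, -0.58, -1.39 and -1.20 against UH301. The hybrid with UH301 as seed parent lay near that inbred, and the reciprocal hybrid lay below it. Against UH005, 301x005 measured 1.27, 0.84, 1.41 and 1.66, and 005x301 measured 0.28, 0.70, 0.12 and 0.76. For the 43 probes called lower, 301x005 measured 0.44, 0.00, 0.55 and -0.11 against UH301, and 005x301 measured 0.94, 0.56, 0.91 and 0.49. Against UH005, 301x005 measured -0.41, -0.36, -0.41 and -0.85, and 005x301 measured -0.08, -0.56, -0.08 and -0.50. These 4 comparisons make up the inbred difference, and are given as a description. The path through 301x005 alone gave 111 calls and the path through 005x301 alone 2. All 151 called probes had the same sign on both paths, against 1584 of all 2351 tested probes. The calls were made on the mean of both paths, so this shared sign is a description. The medians were 1.31 and 1.52 on these paths for probes called higher and -0.69 and -1.17 for those called lower.

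The same difference between UH301 and UH005 was measured in embryos by 4 loops, and UH301 was compared with the inbred UH250 in endosperm by 2 loops. Their loops entered the calls above through the shared spread and not through the difference. Of the 108 probes called higher, 96 were tested against UH250 and had a median of 0.49 there, with quartiles of 0.43 and 0.58, beside a median of -0.05 for the 1992 probes tested in both. The replicates of that cross gave medians of 0.16 and 0.84 for the probes called higher and 0.00 and -0.07 for all tested probes. Of the 43 called lower, 39 were tested and had a median of -0.42, with quartiles of -0.68 and -0.24. UH301 takes part in both crosses, and the labels do not say whether a UH301 extract was used in both, so the values stand side by side with no count of shared signs. No probe passed for UH301 against UH250 (limma, 0 of 2177, 0%, with 135 at an unadjusted p under 0.05).

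The called probes with J, K, N, O and R IDs lay close together in the UH250 cross. Their SD across probes was 0.27 in replicate 1 and 0.29 in replicate 2, where 84 and 82 of the 85 were measured. The other 23 probes called higher had SDs of 0.73 and 0.75. All tested probes had SDs of 0.40 and 0.53. The J, K, N, O and R probes called higher thus had the lowest SD of these groups in both UH250 replicates. In embryo replicates 1, 2 and 3 their SDs were 0.49, 0.66 and 0.64, against 0.47, 0.76 and 0.52 of all tested probes. In replicates 1 to 4 of the UH005 comparison in endosperm they were 0.54, 0.68, 0.58 and 0.43, against 0.60, 0.62, 0.69 and 0.70.

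In embryos, 64 of the 108 probes called higher in endosperm were tested, and 58 of them lay above 0, with a median of 0.58, against 943 of 1789 probes above 0 overall and a median of 0.02. The medians were 0.38, 0.62 and 0.66 in embryo replicates 1 to 3, over 54, 72 and 83 of the 108 probes, and 0.54 in embryo replicate 4, over 5 probes only. Those of all tested probes were -0.02, 0.21, -0.03 and 0.02. Of the 85 probes with the 5 letters, 38, 55, 68 and 1 had a value in the 4 embryo replicates, and 1876, 1667, 2081 and 718 of all 2351 tested probes had. Embryo replicate 4 thus gave a value for 1 of the 85. Of the 43 called lower, 38 were tested in embryos and 6 lay above 0, with a median of -0.22. In embryos 17 of 1892 probes were called, or 0.899%, and 15 of these were tested in endosperm. Of the 102 called endosperm probes tested in embryos 7 passed there too, 6 higher and 1 lower in UH301, and these are 7 of the 15. Of the 6, 2 were among 49 tested probes with the 5 letters and 4 among 15 tested probes with other IDs. Both tissues were called with the same spread for a probe, so the overlap is a description.

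**Figure D4:**
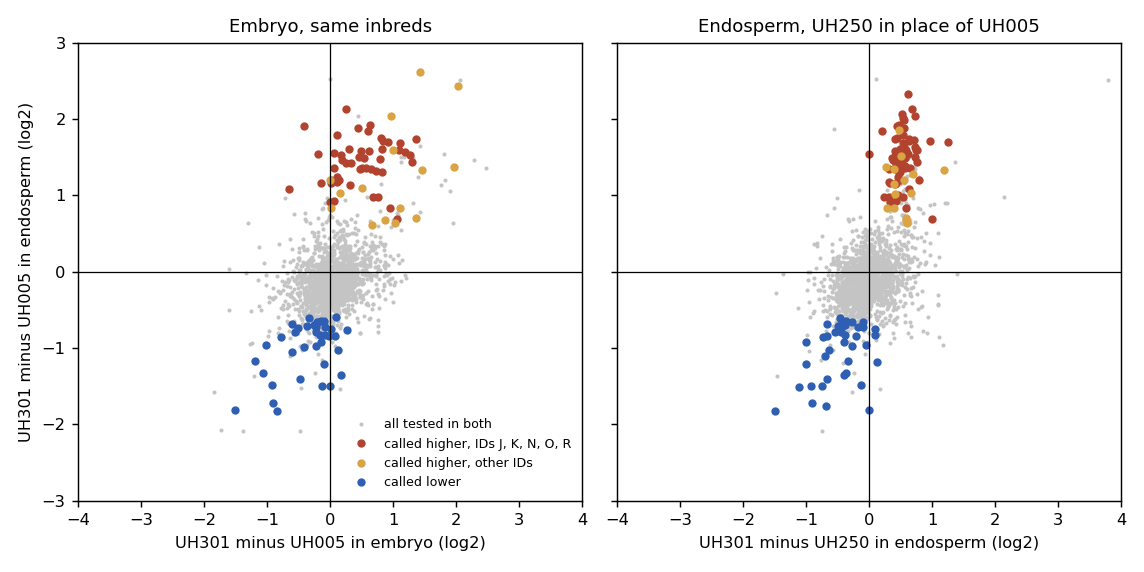
Endosperm difference UH301 minus UH005 (vertical axes, log2) against the embryo difference of the same inbreds (left, horizontal axis, log2) and against UH301 minus UH250 in endosperm (right, horizontal axis, log2), for probes tested in both. Red and yellow points are probes called higher in UH301 with J, K, N, O or R IDs and with other IDs, blue points those called lower, and grey points all others. On the right the 96 red and yellow points have a median of 0.49 on the horizontal axis, with quartiles of 0.43 and 0.58.

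No probe passed the test that the inbred difference itself was larger or smaller in endosperm than in embryo (limma, 0 of 1789, 0%, with 166 at an unadjusted p under 0.05, of which 53 were among the 102 called probes tested). The lowest adjusted p was 0.220. Among the probes called higher, the endosperm minus embryo median was 0.88. No probe passed the test between crosses, UH301 minus UH005 less UH301 minus UH250 in endosperm (limma, 0 of 1992, 0%, with 118 at an unadjusted p under 0.05, of which 43 were among the 135 called probes tested). There the median of the probes called higher was 0.94. The called probes were chosen on the endosperm difference that enters both comparisons. These medians and the counts of 53 and 43 are therefore a description.

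OA7 measured 2.13 in endosperm and 0.24 ± 0.25 in embryo (SE, n = 3), a tissue difference of 1.89 ± 0.33 with a limma adjusted p of 0.220. MH10 was lower in UH301 in both tissues, with -1.81 in endosperm and -1.55, -1.53 and -1.45 in embryo replicates 1 to 3 (mean -1.51 ± 0.22 SE, limma adjusted p = 0.0345 in embryo). Against UH250 MH10 measured 0.41 and -0.42, on both sides of 0, and the difference between crosses was -1.81 ± 0.34 with a limma adjusted p of 0.627. UE9 measured -0.78, -0.42, -1.89 and -1.19 in embryo (mean -1.07 ± 0.24 SE, limma adjusted p = 0.0590). JA5 had a value in a single embryo replicate, at 0.99.

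Of the 3585 probes, 62 could be named from their IDs, and 59 had a value in endosperm. The names stand for chromatin genes for the most part. Chromatin is DNA wound on histones, and the named proteins set or read its marks by methylating DNA, by adding or removing acetyl groups on histones, or by loading and moving nucleosomes. Tests were possible for 30 probes of 29 genes. None of the 30 passed (limma), against 6.42% of all tested probes, and 2 had an unadjusted p under 0.05. Most of the 30 have P_ IDs, a set in which 0 of 277 tested probes were called. Values were above 0 for 10 and below 0 for 20, with a median of -0.12 beside -0.10 for all tested probes. For 12 of the 30 the path through 301x005 and the path through 005x301 had opposite signs.

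DNA methyltransferases copy or place methyl groups on cytosine. Of 4 tested probes 1 lay above 0 and 3 below, and the median was -0.39. It was -0.34 with arrays centred and -0.25 with arrays scaled. MET2A measured 0.33, -0.48, -0.89 and -0.59 in replicates 1 to 4, a mean of -0.41 ± 0.21 (SE, n = 4, limma adjusted p = 0.317). MET1 measured 1.02, -0.999 and -1.50 in replicates 1 to 3, a mean of -0.49 ± 0.43 (SE, n = 3, limma adjusted p = 0.592). The MET1 replicates lay on both sides of 0, and without replicate 1 the mean was -1.25 with a limma adjusted p of 0.0431. The DMT101 probe with an S_ ID, whose label belongs to the same RefSeq gene as MET1, measured -0.28 and -0.45 in replicates 2 and 3, a mean of -0.37 ± 0.21 (SE, n = 2). A further DMT101 probe, with a P_ ID, measured -0.28 and 0.81 in replicates 1 and 3, so that the DMT101 probes had opposite signs in replicate 3. DMT106 measured 0.03, 0.14, -0.16 and 0.01, a mean of 0.00 ± 0.15 (SE, n = 4), and its P_ probe had a single value, 0.76 in replicate 3, again of opposite sign to the tested probe there. DMT105, also with a P_ ID, measured -0.26 and 0.24 in replicates 3 and 4. These 3 P_ probes were not tested, and their means of 0.26, 0.76 and -0.01 stand outside the count and median of the 4 tested probes.

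Histone deacetylases remove acetyl groups from histone tails. HDT102, of the plant-specific HD2 type, measured -0.62, -0.27 and -0.50 in replicates 1, 3 and 4, a mean of -0.46 ± 0.19 (SE, n = 3, limma adjusted p = 0.207). HDA101 measured 0.91, 0.58 and -0.07 in the same replicates, a mean of 0.47 ± 0.24 (SE, n = 3, limma adjusted p = 0.341). HDT102 was below 0 in each replicate, whereas HDA101 lay on both sides. The other 5 deacetylase probes had too few values for a test. Bromodomain proteins bind acetylated histones. GTE102 measured -0.59, -0.46 and -0.09 in replicates 1, 3 and 4 (mean -0.38 ± 0.24 SE, n = 3), and BRD103 measured 0.23, -0.28 and 0.47 (mean 0.14 ± 0.23 SE, n = 3). GTE102 measured -0.92 through 301x005 and 0.16 through 005x301. The acetyltransferase genes HAC106 and HAC108 had a value in 1 replicate each, 1.35 in replicate 3 for HAC106 and 0.19 in replicate 1 for HAC108.

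Nucleosome assembly and histone-binding factors carry histones and load them on DNA. Of 7 tested, 2 lay above 0 and 5 below, with a median of -0.04 that turned to 0.03 with arrays centred and 0.05 with arrays scaled. NFA102 measured -0.18, 0.11 and -1.70 in replicates 1, 3 and 4, a mean of -0.59 ± 0.35 (SE, n = 3, limma adjusted p = 0.420). This mean came mainly from replicate 4. NFA101 measured -0.61, 0.21 and -0.59, a mean of -0.33 ± 0.22 (SE, n = 3). NFC101, NFC102 and NFC103, of the WD40 type that binds histones, had means of -0.01, -0.04 and -0.12, and NFA103 and NFA104 means of 0.10 and 0.02. All 7 had their highest value in replicate 3, which was not particular to this list. HDT102, NFD101, NFD104, NFE101, MBD106, MBD109, FIE2 and CHR111 did too, and HDA101, NFD106, MBD101, MBD108, BRD103 and GTE102 did not.

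High mobility group factors bend DNA. NFD101 measured -0.29, -0.16 and -0.44 in replicates 1, 3 and 4, a mean of -0.29 ± 0.20 (SE, n = 3, limma adjusted p = 0.474). NFD104, NFD106 and NFE101, listed with them, had means of -0.01, -0.05 and 0.13. The list median of -0.03 turned to 0.04 with arrays centred and 0.03 with arrays scaled. Proteins with a methyl-CpG-binding domain belong to the family known for reading methylated DNA. Of 4 tested 2 lay above 0 and 2 below. MBD108 measured -0.38, -0.24 and -0.13 (mean -0.25 ± 0.27 SE, n = 3) and MBD106 -0.02, 0.40 and 0.09 (mean 0.15 ± 0.22 SE, n = 3). The direction of MBD108 depended on the path, with -1.37 through 301x005 and 0.87 through 005x301. MBD101 and MBD109 had means of 0.09 and -0.14, with replicates on both sides of 0. CHR111, a remodelling ATPase, measured 0.11, 0.34 and -0.04 (mean 0.13 ± 0.21 SE, n = 3).

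**Figure D5:**
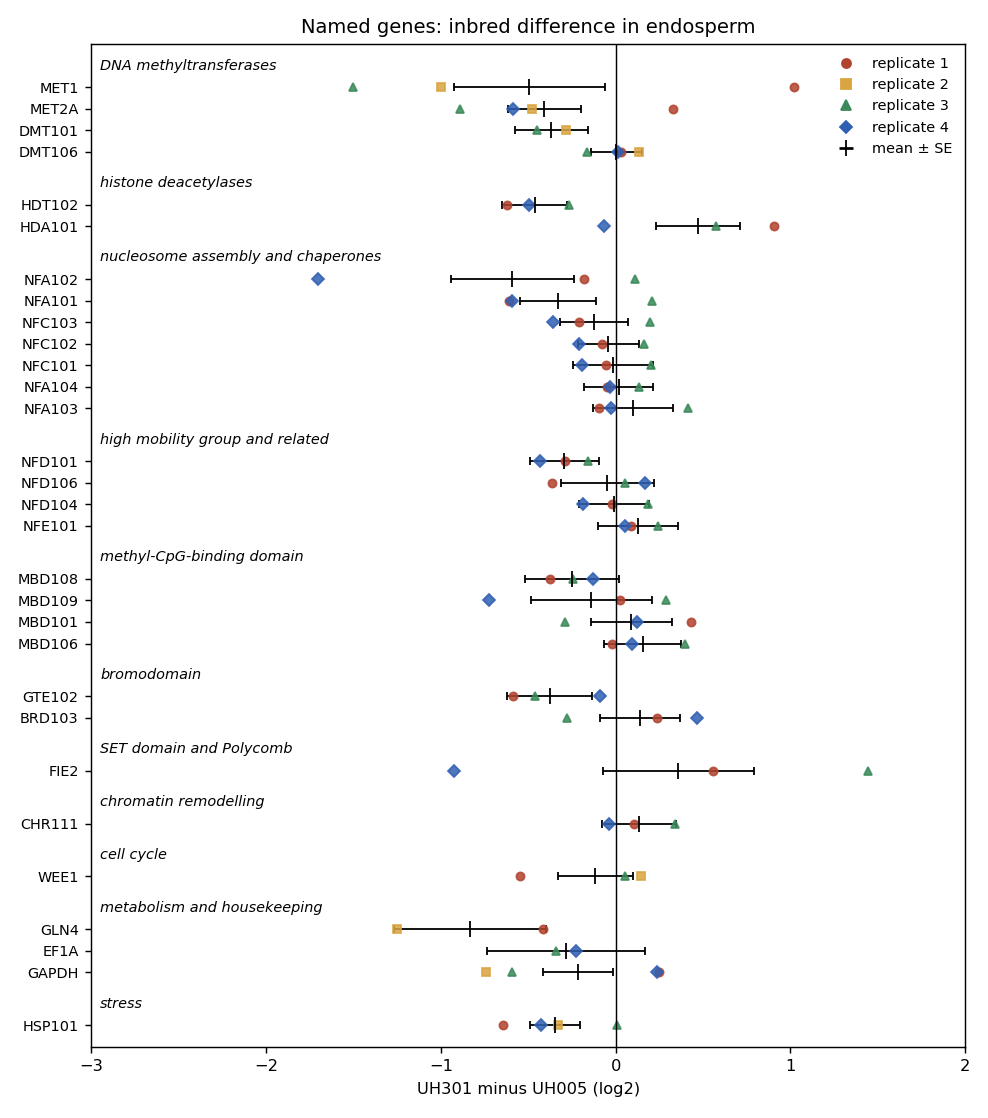
Inbred difference, UH301 minus UH005 on the log2 scale (horizontal axis), for the 30 tested probes with a gene name (vertical axis), grouped by list. Coloured points are replicates, and black bars the mean ± SE of the limma fit. None passed the test, and the means lie between -0.84 for GLN4 and 0.47 for HDA101.

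Imprinted genes are expressed mainly from the maternal or the paternal copy. FIE2, a Polycomb group gene, measured 0.56, 1.44 and -0.93 in replicates 1, 3 and 4, a mean of 0.36 ± 0.43 (SE, n = 3, limma adjusted p = 0.718). The replicates of FIE2 spanned more than 2 log2 units and lay on both sides of 0, and the mean was -0.72 through 301x005 and 1.44 through 005x301. MEG1, a maternally expressed peptide gene of the transfer cells, had values of 0.55 and 1.17 in replicates 1 and 3 and could not be tested, because both carried the dyes the same way round. MRP1, a transcription factor of the same cells, measured -0.04 and 0.55 there. FIE1 measured -0.17 in replicate 3 alone and NRP1 0.14 in replicate 1 alone. MEG1, MRP1, FIE1 and NRP1 are the 4 endosperm markers that could be named, of 7 looked for, and 0 of 5 embryo markers and 0 of 4 markers of maternal tissue could be named. A ratio within endosperm holds no level, so the tissue label was not checked further. Of the SET-domain genes, whose kind methylates histones, SDG107 measured 0.63 and 0.68 and SDG118 0.29 and 0.07 in replicates 1 and 3, and neither could be tested. CENH3, the centromeric histone, measured 0.27 and 0.56 in replicates 1 and 3.

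The lowest p among the 30 tested named probes was that of HSP101, a chaperone that takes apart protein aggregates after heat. It measured -0.65, -0.33, 0.01 and -0.43 in replicates 1 to 4, a mean of -0.35 ± 0.14 (SE, n = 4, limma adjusted p = 0.201). The value was near 0 in replicate 3 and below 0 in the others. GLN4, a glutamine synthetase that assimilates ammonium, measured -0.42 and -1.25 in replicates 1 and 2, a mean of -0.84 ± 0.44 (SE, n = 2, limma adjusted p = 0.351). In embryos GLN4 measured -0.70, -1.60 and -0.67, a mean of -0.99 ± 0.36 (SE, n = 3). GAPDH, a glycolytic enzyme, measured 0.25, -0.74, -0.59 and 0.23, a mean of -0.21 ± 0.20 (SE, n = 4). Its replicates lay on both sides of 0, and it measured 0.15 through 301x005 and -0.57 through 005x301. EF1A, an elongation factor of translation, measured -0.34 and -0.23 in replicates 3 and 4, with -0.63 through 301x005 and 0.17 through 005x301. WEE1, a kinase that delays mitosis, measured -0.55, 0.14 and 0.06 in replicates 1 to 3, a mean of -0.12 ± 0.21 (SE, n = 3).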

How the data were processed

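The authors deposited 1 log ratio per probe and array for 48 two-colour arrays, used here as log2 values. The sources used here do not give the log base, background correction, normalization or build. Of 3592 entries 7 controls were left out. Groups were read from the array titles. Ratios were turned to hybrid over inbred, and each loop of 4 arrays gave 1 inbred difference per probe, in which a shared dye effect cancels. The 12 loops of the series were fitted together with limma 3.58.1 in R 4.3.3, with 1 coefficient per cross and tissue and variances moderated over all probes with a residual degree of freedom. A probe was tested with at least 2 loops of both dye orientations and 3 residual degrees of freedom. Tests were two-sided, adjusted by Benjamini-Hochberg, with a threshold of 0.05. The code was tested on simulated data. Names came from ID labels that match a single symbol or synonym in the B73 RefSeq table, assembly Zm-B73-REFERENCE-NAM-5.0. Every such probe was named by list, and of unnamed called probes the 2 largest in each direction with 4 replicates of the same sign. The probes, lists and limits were chosen with earlier results of these data known. The alternatives were centring, scaling, probe filters, leaving out replicates, other spreads, single-array fits and single paths. Arrays give no depth. The number of loops limits precision, and p-values measure the spread between these loops.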

Additional observations from a re-analysis of the deposited data

How the results depend on the processing

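The count of 151 probes called between UH301 and UH005 in endosperm was 55 with arrays scaled to 1 spread and 1 of 377 with probes present on all 48 arrays. It was 42 to 82 with a replicate left out. It was 38 with the spread taken from the 4 endosperm loops alone, 46 when these probes also had 3 residual degrees of freedom, and 129 when variances were moderated among them only. With the 8 loops of the UH301/UH005 cross it was 85. Fits of single arrays called 270 with the replicate block and 269 without it, and the path through 005x301 alone called 2. Alternatives chosen after seeing the data gave 13 of 1979 without J, K, N, O and R IDs and 89 with each ID set centred. The cause of these shifts was not tested. Centring, other limits on missing values, leaving out P_ probes, the 6 endosperm loops, the path through 301x005 alone and the size limit of 1 gave 108 to 156, and moderation over tested probes 184. The tissue and cross comparisons had 0 calls under each alternative run. The replicate block for endosperm minus embryo called 0 of 1721, with 185 at an unadjusted p under 0.05. Same-numbered embryo and endosperm replicates had deviations correlated across probes at r = 0.06, 0.26, 0.12 and 0.12, against -0.20 to 0.11 for different numbers, and 3 of 4 endosperm replicates correlated best with their own number. As the labels name no shared batch and the r of replicate 1 was not over 0.1, the numbers were not used as pairs. Among 614 single values of 34 probes under alternatives, 10 calls were lost, 1 was gained and 0 called values changed sign. A further 32 values that were not called changed sign. Of the 34 probes, 30 are the named ones, none of which was called. Only JA5, OA7, MH10 and UE9 could therefore lose a call, and the 10 lost calls were those of JA5, MH10 and UE9.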
